A study of Mus musculus with 32 samples.

Results

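The hippocampus of old wild type mice was compared with that of young wild type mice on Illumina bead arrays, with 5 old arrays (replicates 1 to 5, 23 months) and 4 young arrays (replicates 1 to 4, 1 month), 9 of the 32 arrays of the study. All these mice were of the C57BL/6J strain and ate chow from weaning, and they were wild type by their labels. The sample titles give the old age as 23 months, while the protocol text gives 21 to 23 months for old mice. Each array measured total RNA of hippocampal tissue. Members were chosen by the genotype and age in the sample titles, and probes with a detection p-value below 0.05 on 3 or more of the 9 arrays were kept. The study also profiled mice lacking ASC, CIAS or CASP11 at young and old age (CASP11 only young), and it asked how inflammasome components bear on ageing. Those arrays entered the statistical model, so that the spread between arrays was estimated over 31 arrays. With only 1 month and 23 months sampled, early maturation and late ageing cannot be told apart.

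The hippocampus holds excitatory neurons, several classes of inhibitory neuron, and a dentate gyrus in which new neurons are still born after birth. Its microglia are the resident immune cells of brain tissue, its astrocytes support synapses and take on a reactive state with injury and age, and its oligodendrocytes form myelin from dividing precursors that pass through a short-lived premyelinating stage. Complement proteins of the classical pathway start with C1q, act through C4, and can tag material for removal by microglia. Because the arrays measured bulk tissue, fewer cells of a type and less RNA per cell cannot be told apart.

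Some arrays stood apart, and these are described before the results. The sixth old array was left out, since it held striatal transcripts far above the others (Rgs9 at 13.27 against at most 8.59 on the 5 old arrays used). The 9 arrays used detected between 13319 and 13815 probes each, with median signals from 58.3 to 79.0. Their defining hippocampal markers overlapped between ages, with the mean of 5 CA1 markers at 9.80 to 10.1 in young and 9.93 to 10.1 in old arrays. The mean of 4 CA3 markers was 7.22 to 7.40 in young and 7.03 to 7.23 in old arrays, overlapping only at old array 1. That of 5 thalamic markers was 8.02 to 8.33 in young and 8.16 to 8.55 in old arrays. A difference in dissection was not tested. Transcripts of the choroid plexus, the epithelium that makes cerebrospinal fluid and lies against the hippocampus, were low on old arrays 2 and 4. Ttr, its main secreted carrier protein gene, stood at 14.33, 14.11, 14.19 and 14.29 in young and 13.93, 12.42, 14.29, 12.74 and 14.37 in old arrays. The mean of 6 choroid plexus markers was 9.02 to 9.49 in young arrays and 7.20 to 9.92 in old arrays, and 0 of 18 members of the choroid plexus and ependyma list passed the test (median log2 difference -0.48). The Y-linked translation factor gene Eif2s3y was at background on young arrays 3 and 4 and on old array 4, where Xist, the RNA that silences an X chromosome, was high. By these values both ages held mice of both sexes, 2 and 2 among the young and 4 and 1 among the old arrays, and the labels give no sex. The labels do not say that the samples of a group were separate animals, so the p-values measure the spread between these samples.

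**Figure D1:**
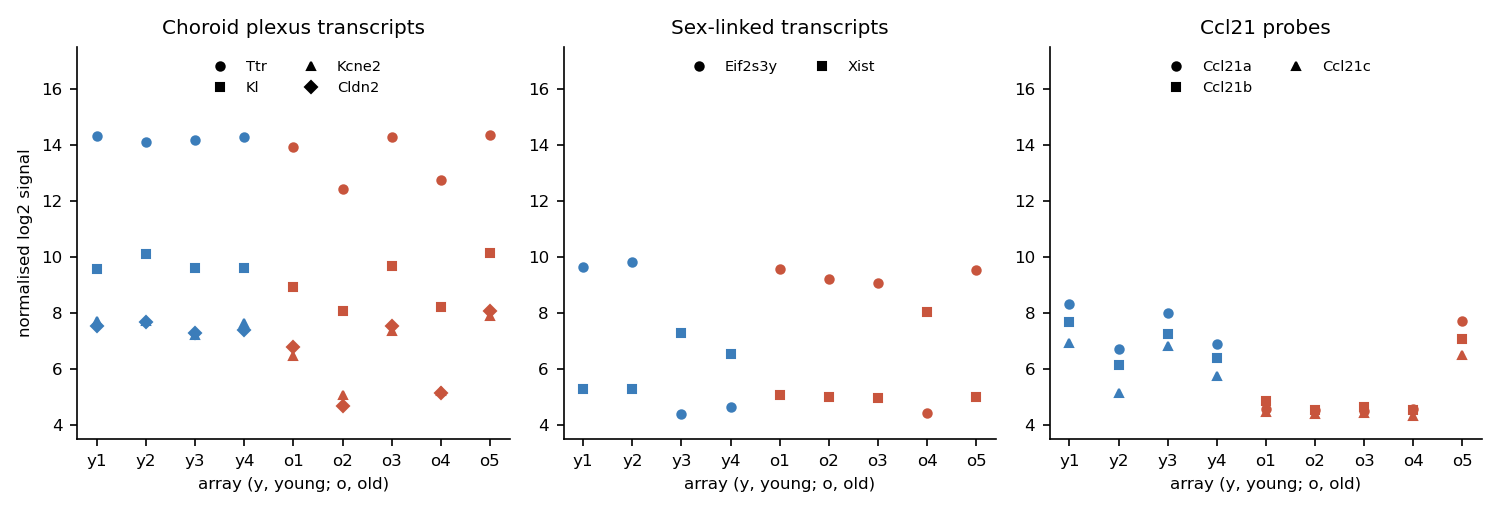
Normalised log2 signal (vertical axis) of choroid plexus transcripts, sex-linked transcripts and 3 Ccl21 probes on each of the 4 young (blue) and 5 old (red) wild type arrays (horizontal axis). Choroid plexus transcripts were lowest on old arrays 2 and 4, Eif2s3y was at background on young 3, young 4 and old 4, and the Ccl21 probes were at background on old arrays 1 to 4 and high on old array 5.

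Of 10644 features tested, 822 (7.72%) differed between old and young wild type hippocampus at an adjusted p under 0.05 (limma, Benjamini-Hochberg). Of these, 399 (3.75%) were higher and 423 (3.97%) lower in old mice. Each count of called list members below is to be set beside these shares. The median difference over all features was -0.012 on the log2 scale. Most changes were small, with a median fold of 1.32 among the genes called higher and 1.28 among those called lower. A fold of at least 1.5 was reached by 125 called genes, 85 higher and 40 lower, and a fold of at least 2 by 14. Every old array lay above every young array for 301 of the genes called higher, an arrangement found in 5.38% of all features. For 289 of the genes called lower every old array lay below every young array (4.9% of all features). A signal below is a normalised log2 value, a difference is old minus young on that scale with its standard error (SE), and a mean carries its standard deviation (SD).

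**Figure D2:**
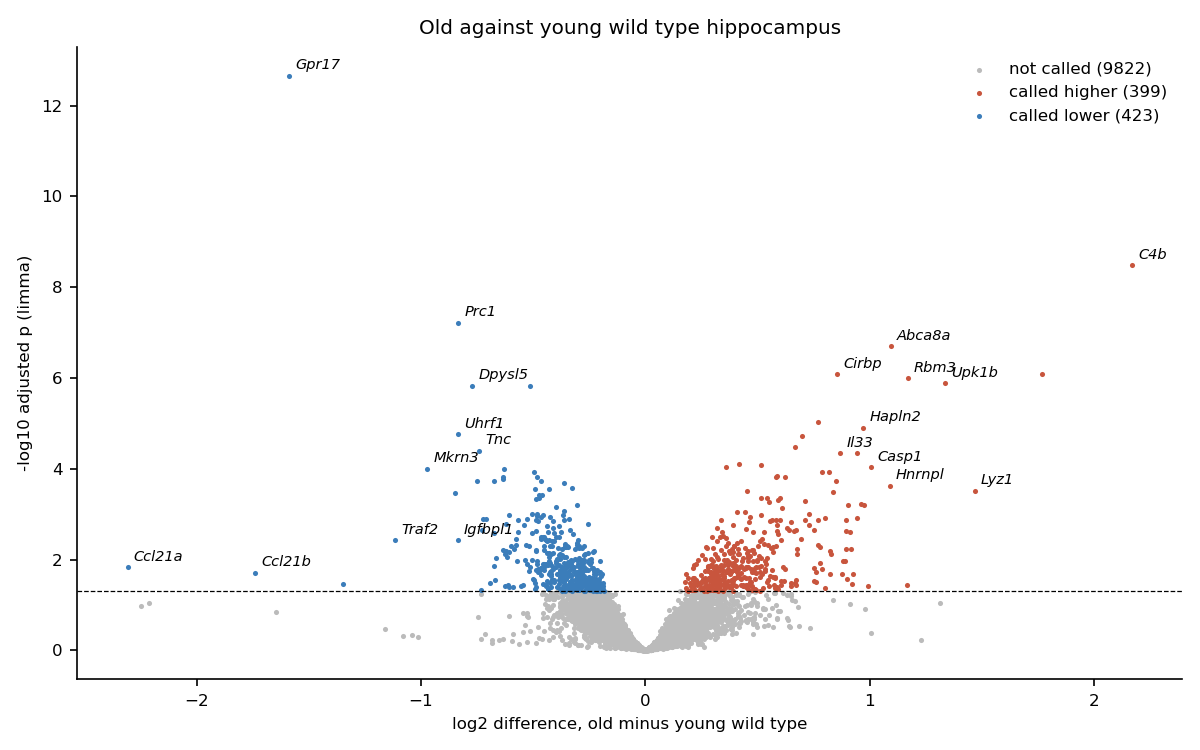
Difference between old and young wild type hippocampus (horizontal axis, log2) against the -log10 of the limma adjusted p (vertical axis) for the 10644 features tested, with called genes in red (399 higher) and blue (423 lower) and a dashed line at adjusted p of 0.05. Gpr17 and C4b stood furthest up the axis, and the Ccl21 probes showed large differences with larger adjusted p-values.

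The largest rise among named genes was that of C4b, which encodes the complement component cleaved after C1q binds. Its signal was 7.24, 7.98, 7.00 and 7.30 on young arrays 1 to 4 and 9.19, 9.40, 9.17, 9.99 and 9.98 on old arrays 1 to 5. The groups did not overlap, and the highest young array, replicate 2, lay 1.20 below the lowest old array. The difference was 2.17 (SE 0.18, 4.5-fold, adjusted p = 3.3e-09). An array probe for C4b may also bind the transcript of the closely related C4a gene, so the copies cannot be separated here. A probe without a gene name, ILMN_2759484, came next at 1.77 (SE 0.19, adjusted p = 8.12e-07).

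The 3 chains of C1q, the pattern receptor that starts the classical pathway and is made in brain mainly by microglia, rose together. C1qa went from 6.34, 6.37, 6.45 and 6.29 in young arrays to 6.94, 7.02, 6.98, 7.37 and 7.00 in old arrays, with no overlap (difference 0.70, SE 0.092, adjusted p = 1.85e-05). C1qc rose by 0.65 (SE 0.12) and C1qb by 0.52 (SE 0.13). Of 6 complement genes of the classical and lectin routes that were tested, 4 rose and 1 fell, with a median of 0.59. The one that fell was Masp2, a protease of the lectin route, from 6.07 ± 0.068 (n = 4) to 5.62 ± 0.23 (n = 5) (adjusted p = 0.0126). None of the 7 complement regulators tested passed. Serping1, which inhibits C1, was at 6.60, 7.01, 6.66 and 6.54 in young and 6.61, 6.98, 7.07, 7.60 and 7.61 in old arrays, highest on old arrays 4 and 5 but overlapping (adjusted p = 0.207).

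Among 22 tested markers of homeostatic microglia 13 rose and 0 fell, with a median difference of 0.39. The C1q genes, counted above as complement, are also among the 13. Gene lists here and below share members, so their counts are not separate lines of evidence. Trem2, a lipid-sensing receptor, stood at 7.10, 6.98, 6.98 and 7.18 in young and 7.42, 7.69, 7.48, 7.89 and 7.77 in old arrays. Every old array was above every young array (difference 0.59, SE 0.09, adjusted p = 0.000141). Its signalling partner Tyrobp rose by 0.45 with overlap, as young array 1 lay at 7.14, and its call was lost without any of young 2 and 3 or old 4 (adjusted p up to 0.066). Fcer1g, another adaptor chain, rose by 0.47 (SE 0.086), the actin-binding marker Aif1 by 0.46 (SE 0.088), the lysosomal membrane gene Laptm5 by 0.55 (SE 0.12) and the toll-like receptor partner Ly86 by 0.50 (SE 0.11). The nucleotide receptor gene P2ry13, the selectin ligand gene Selplg and the sialic acid receptor gene Cd33 rose by 0.36, 0.30 and 0.41. The protease gene Ctss rose by 0.47, a call lost without any of young 2 and 3 or old 2, 3, 4 and 5 (adjusted p up to 0.151).

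Not all microglial identity genes moved. P2ry12, the nucleotide receptor most used to mark resting microglia, was at 7.54, 7.53, 7.75 and 7.88 in young and 7.98, 7.72, 7.46, 7.70 and 7.54 in old arrays (difference 0.004, adjusted p = 0.991). Tmem119 differed by 0.19 (adjusted p = 0.177) and Siglech by 0.04 (adjusted p = 0.874), although a second, dimmer Siglech probe differed by 0.40 with no overlap. The chemokine receptor gene Cx3cr1 was 9.33, 9.19, 9.24 and 9.22 in young and 9.64, 9.74, 9.52, 9.76 and 9.43 in old arrays, without overlap, yet did not pass the test (adjusted p = 0.14).

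Of 23 genes of activated microglia 6 rose and 0 fell (median 0.25). Lyz1, a lysozyme gene, stood at 8.22, 8.56, 8.28 and 8.21 in young arrays and at 9.07, 9.62, 9.56, 10.70 and 9.98 in old arrays. The old values spread widely, with array 4 highest, but did not meet the young ones (difference 1.47, SE 0.24, adjusted p = 0.000302). Lyz1 and Lyz2 are near-identical copies whose probes may share signal, and the call of Lyz2 at 0.99 was lost without any of young 1, 3 and 4 or old 2, 3, 4 and 5 (adjusted p up to 0.125). A dimmer Lyz2 probe differed by 1.44, without overlap. Gpnmb, a membrane glycoprotein of lipid-laden macrophages, rose from 7.00 ± 0.21 (n = 4) to 7.73 ± 0.35 (n = 5) (adjusted p = 0.000993). The bacterial lipoprotein receptor gene Tlr2 rose by 0.50 (SE 0.12). The chemokine gene Ccl4 was 4.89, 4.95, 5.16 and 5.12 in young and 5.12, 5.75, 5.28, 7.05 and 5.75 in old arrays, so that array 4 carried the largest value, and its call at 0.76 was lost without any of young 1, 2, 3 and 4 or old 4 (adjusted p up to 0.0783). Ccl4 was detected on 2 young and 5 old arrays, so it passed the filter through the old arrays. Apoe and Cst7, commonly cited members of the activated group, differed by 0.25 and 0.20 and did not pass (adjusted p = 0.177 and 0.278).

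Genes of MHC class I antigen presentation rose for 4 of 12 tested members (median 0.28), and 0 fell. H2-M3, a nonclassical class I chain, was 5.75, 6.04, 5.96 and 5.78 in young and 6.32, 6.34, 6.33, 6.33 and 6.36 in old arrays (difference 0.45, SE 0.10, adjusted p = 0.00714). The old values lay within 0.042 of each other and above all young values. B2m, the common light chain, also counted among the activated microglia genes, rose by 0.46 (SE 0.12), with old array 1 at 10.78 inside the young range. Another B2m probe differed by 0.61, without overlap. The peptide-loading genes Tapbpl and Calr rose by 0.36 and 0.46, and the call of Calr was lost without any of young 1, 3 and 4 or old 1, 2, 3 and 5 (adjusted p up to 0.123). The immunoproteasome subunit gene Psmb9 rose by 0.49, a call lost without any of young 1, 2, 3 and 4 or old 2, 3, 4 and 5 (adjusted p up to 0.104). In class II, H2-DMa, a peptide exchange factor, and the protease Ctss were the 2 called of 7 (median 0.47), and the call of H2-DMa was lost without any of young 1, 2 and 3 or old 1, 2 and 4 (adjusted p up to 0.134). The invariant chain gene Cd74 was 5.23, 5.13, 4.94 and 4.75 in young and 4.96, 5.51, 5.92, 6.57 and 6.68 in old arrays, highest on old arrays 4 and 5, and did not pass (adjusted p = 0.0962).

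Of 32 interferon-stimulated genes tested 5 rose and 0 fell (median 0.19), and Psmb9, described above, is 1 of the 5. Ifit3, which encodes an antiviral RNA-binding adaptor, stood at 7.64, 7.82, 7.56 and 7.24 in young and 8.19, 8.61, 8.32, 8.93 and 8.57 in old arrays. All old arrays lay above all young arrays (difference 0.96, SE 0.17, adjusted p = 0.000589), and both further detected probes of the gene differed by 0.60 and 0.50, also without overlap. Trim30a, a regulator of innate signalling, rose by 0.51 (SE 0.13), a call lost without young 1 (adjusted p = 0.0551). Eif2ak2, the kinase that halts translation on double-stranded RNA, rose by 0.35 (SE 0.087), a call lost with wild type arrays alone and with old replicate 6 included. The glycoprotein gene Lgals3bp rose by 0.67, a call lost without any of young 1, 2 and 4 or old 3, 4 and 5 (adjusted p up to 0.126). Isg15, a ubiquitin-like modifier, was 5.80 ± 0.23 (n = 4) in young and 5.69 ± 0.18 (n = 5) in old arrays (adjusted p = 0.572). Irf7 was not detected on any of the 9 arrays.

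The promoters of Ifit3 and Trim30a show the letters that interferon-activated factors read in this family. In RefSeq sequence of build GRCm38.p6, the 250 bases before the transcript start were searched on both strands for the interferon-stimulated response element, spelled GAAA, any 2 bases, then GAAA. Ifit3 (chr19:34583279-34583528, plus strand) held 2 matches and Trim30a (chr7:104465194-104465443, minus strand) held 1, in capitals, here read on the opposite strand.
Ifit3: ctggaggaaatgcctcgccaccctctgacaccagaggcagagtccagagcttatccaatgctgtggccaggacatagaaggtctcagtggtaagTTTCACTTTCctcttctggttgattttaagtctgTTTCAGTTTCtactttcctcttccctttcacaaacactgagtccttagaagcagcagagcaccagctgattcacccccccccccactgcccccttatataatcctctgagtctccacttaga
Trim30a: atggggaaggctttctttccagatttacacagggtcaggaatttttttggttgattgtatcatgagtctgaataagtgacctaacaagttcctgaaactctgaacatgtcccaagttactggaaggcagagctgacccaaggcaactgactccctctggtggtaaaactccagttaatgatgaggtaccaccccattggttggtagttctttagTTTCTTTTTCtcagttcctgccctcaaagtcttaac
Such a match occurred in 13 of 26 tested interferon-stimulated genes with a promoter sequence, in 2 of the 5 called ones, in 2.45% of 7984 tested genes and in 3.04% of 27025 genes in all. The match describes the sequence and does not show that a factor was bound.

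These immune groups were not even across old arrays. Old array 4 had the highest mean for the complement, homeostatic microglia, activated microglia, interferon and reactive astrocyte lists, and old array 1 the lowest old mean for each of them. For the homeostatic list the means were 7.58 to 7.76 in young and 7.90 to 8.21 in old arrays, so the ages did not overlap. For the activated list they were 7.95 to 8.10 and 8.05 to 8.65, and for the interferon list 6.69 to 6.90 and 6.85 to 7.20, both with overlap. Without old arrays 2 and 4, a choice made after seeing the choroid plexus values, the number of called members was 8 of the homeostatic, 2 of the activated and 2 of the interferon list. Among the 6 arrays with high Eif2s3y (young 1 and 2, old 1, 2, 3 and 5), also chosen after the values were seen, it was 4, 3 and 0, in a fit that called 234 genes in all.

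The inflammasome is the complex whose sensor and adaptor activate caspase-1, which then matures interleukin-1 beta and interleukin-18. Casp1 stood at 7.19, 7.70, 7.10 and 7.21 in young and 8.37, 8.29, 8.52, 8.22 and 8.13 in old arrays. Every old array exceeded every young array (difference 1.01, SE 0.15, adjusted p = 9.23e-05). Il33, an alarmin of the interleukin-1 family that is stored in the nucleus of oligodendrocytes and astrocytes, was 8.70, 9.03, 8.72 and 8.72 in young and 9.55, 9.62, 9.65, 9.71 and 9.77 in old arrays. It rose by 0.87 (SE 0.12, adjusted p = 4.49e-05) with no overlap. These were the 2 called of 12 tested genes of the inflammasome and interleukin-1 group, whose median was 0.01, close to that of all features. Il1b lay near background at 4.97 ± 0.23 (n = 4) and 4.95 ± 0.11 (n = 5), and Il18 was 8.73 ± 0.081 (n = 4) and 8.76 ± 0.15 (n = 5) (adjusted p = 0.935 and 0.817). Casp4, the gene of CASP11 and the caspase of the noncanonical route, was 5.45 ± 0.17 (n = 4) and 5.31 ± 0.17 (n = 5), and the pore-forming gasdermin gene Gsdmd 5.72 ± 0.15 (n = 4) and 5.90 ± 0.15 (n = 5) (adjusted p = 0.323 and 0.291). The Casp4 probe also read 5.45 in the young CASP11 knockouts, detected on 4 arrays. It showed no loss of signal there, so its values say little about that gene. No probe of Nlrp3 or Pycard, the sensor and adaptor genes, was detected on any of the 9 arrays, so they were not tested. Of 14 NF-kB and cytokine genes 4 rose. Tnfsf13b, the B cell survival factor, went from 5.45, 5.16, 5.45 and 5.49 to 6.35, 6.24, 5.93, 6.19 and 6.08 (difference 0.77, adjusted p = 9.44e-06) and its second probe differed by 0.75. Tlr2 was another, while the call of Icam1, at 0.28, was lost without any of young 1, 3 and 4 or old 2, 3, 4 and 5 (adjusted p up to 0.141). The chemokine gene Cxcl16 was detected on 0 young and 3 old arrays, so it entered the test only through the group where it was higher. It was at least 1.12-fold higher, and could be tested in 6 of the 9 fits without 1 array, losing its call in 3 of them.

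Reactive astrocyte genes rose for 7 of 16 tested members with 0 falling (median 0.435), C4b being counted among them. Gfap, the intermediate filament that defines the reactive state, stood at 6.31, 6.77, 6.36 and 6.61 in young and 7.04, 7.19, 7.15, 7.77 and 7.52 in old arrays. Old arrays all lay above young arrays, with arrays 4 and 5 highest (difference 0.82, SE 0.19, adjusted p = 0.00661). Osmr, the oncostatin M receptor, rose from 6.44 ± 0.059 (n = 4) to 7.03 ± 0.28 (n = 5) (adjusted p = 0.000481), the calcium-binding protein gene S100a6 by 0.53 (SE 0.11) and the filament gene Vim by 0.57, a call lost without any of young 3 and 4 or old 4 and 5 (adjusted p up to 0.0883). Aspg, an asparaginase gene, was not detected on young arrays and detected on all 5 old arrays, at least 1.30-fold higher. It entered the test only through the old arrays, so its place among the 7 carries no weight of its own. Of 18 general astrocyte markers 1 was higher and 1 lower (median 0.03), close to the 3.75% and 3.97% over all features and so no result about that list. The higher was the growth factor receptor gene Fgfr3 at 0.57, lost without young 2 (adjusted p = 0.0645), and the lower the neurotensin receptor gene Ntsr2 at -0.28, lost without any of young 1 and 2 or old 1, 2, 3 and 4 (adjusted p up to 0.139). The water channel gene Aqp4 was 10.03, 9.88, 9.73 and 9.58 in young and 10.40, 10.28, 10.33, 10.38 and 10.11 in old arrays, without overlap but short of the threshold (adjusted p = 0.0915).

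**Figure D3:**
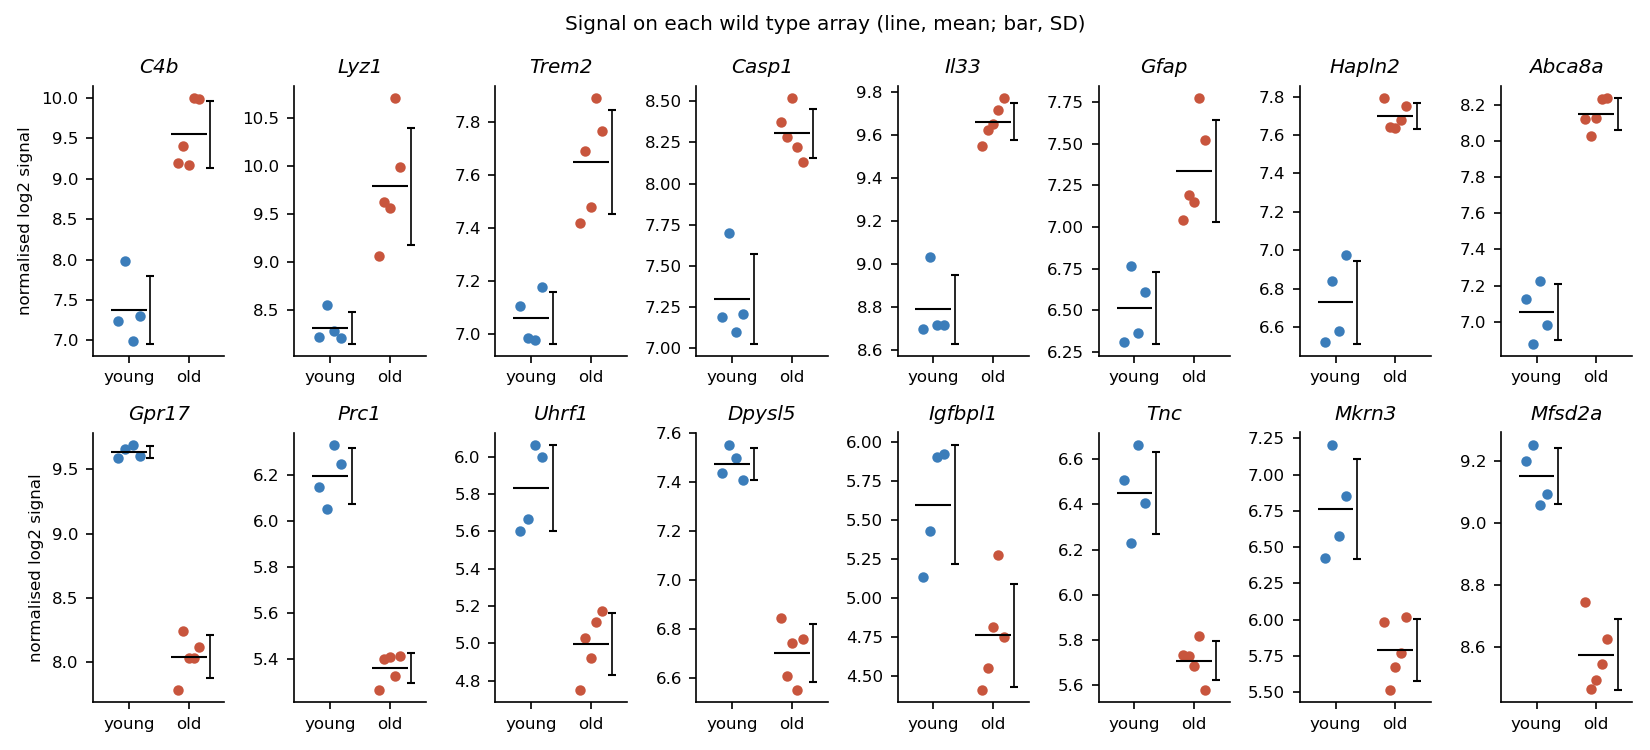
Normalised log2 signal (vertical axis) of 16 genes on the 4 young (blue) and 5 old (red) wild type arrays, each point an array, with the mean as a line and the SD as a bar. The groups did not overlap for any of these genes except Igfbpl1, where old array 4 lay above young array 1.

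Among the 3 oligodendrocyte lineage lists the largest change was that of Gpr17. This gene encodes a receptor carried by premyelinating oligodendrocytes between the precursor and the myelinating cell, and it had the smallest p-value of all features. Its signal was 9.59, 9.66, 9.69 and 9.60 in young and 7.79, 8.24, 8.03, 8.04 and 8.12 in old arrays. The 4 young arrays lay within 0.103 of each other and the highest old array was 1.34 below the lowest of them (difference -1.59, SE 0.086, adjusted p = 2.19e-13). Of 13 newly formed oligodendrocyte markers 3 fell and 0 rose (median -0.014). The others were Sirt2, a deacetylase of myelin, at -0.29, lost without any of young 3 and 4 (adjusted p up to 0.0609), and the sialidase gene Neu4 at -0.30, lost without any of young 2 and 3 or old 1, 2, 3, 4 and 5 (adjusted p up to 0.447). Of 10 precursor markers 2 fell, again Gpr17 and Neu4. Pdgfra, the receptor that defines precursors, was 9.56, 9.57, 9.58 and 9.62 in young and 9.53, 9.47, 9.55, 9.59 and 9.35 in old arrays (adjusted p = 0.512).

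Myelin and mature oligodendrocyte genes rose for 6 and fell for 2 of 29 tested members (median 0.09). Hapln2, a matrix link protein at the nodes of myelinated axons, stood at 6.52, 6.84, 6.58 and 6.98 in young and 7.79, 7.64, 7.64, 7.68 and 7.75 in old arrays, a gap of 0.66 between the groups (difference 0.97, SE 0.12, adjusted p = 1.24e-05). Anln, an actin scaffold of myelin, rose from 9.22 ± 0.24 (n = 4) to 9.97 ± 0.089 (n = 5) (adjusted p = 0.00228), and its second detected probe differed by 1.06. The lipid carrier gene Apod rose by 0.89 (SE 0.22). Klk6, a secreted protease, was below detection on every young array and detected on 4 old arrays, at least 1.30-fold higher. It too entered the test only through the old arrays, although it is counted among the 6. The iron carrier gene Trf rose by 0.59, a call lost without any of young 1, 2, 3 and 4 or old 2, 3, 4 and 5 (adjusted p up to 0.15), and Il33 belonged to this list as well. Tspan2, a membrane protein of the myelinating stage, fell from 10.43 ± 0.22 (n = 4) to 9.83 ± 0.16 (n = 5) (adjusted p = 0.00511). The myelin lipid raft gene Mal was 10.15, 10.95, 10.81 and 10.96 in young and 9.76, 9.96, 9.93, 10.17 and 10.71 in old arrays, with overlap at old array 5, and its call was lost without any of young 2, 3 and 4 or old 1, 2, 3 and 4 (adjusted p up to 0.124). The structural myelin genes Mbp and Mag differed by 0.02 and -0.28 (adjusted p = 0.937 and 0.22).

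Genes of dividing cells fell for 7 of 24 tested members and rose for 0 (median -0.12). Prc1, which bundles the microtubules of the dividing spindle, stood at 6.15, 6.06, 6.33 and 6.25 in young and 5.27, 5.40, 5.41, 5.33 and 5.42 in old arrays. The old values formed a narrow band below all young values (difference -0.83, SE 0.078, adjusted p = 6.06e-08). Uhrf1, which carries DNA methylation through replication, was 5.60, 5.67, 6.06 and 6.00 in young and 4.75, 5.03, 4.92, 5.11 and 5.17 in old arrays (difference -0.84, adjusted p = 1.71e-05). Cenpa, the centromeric histone, fell from 7.58 ± 0.22 (n = 4) to 6.94 ± 0.09 (n = 5) (adjusted p = 0.000155), and Cdc20, an activator of mitotic exit, was 5.28 ± 0.14 (n = 4) and 4.86 ± 0.16 (n = 5) (adjusted p = 0.00769). Cdc20 was detected on 4 young and 1 old array, so it passed the filter through the young arrays and its old level is near background. The replication helicase genes Mcm6 and Mcm5 differed by -0.52 (dimmer Mcm6 probes at -0.17 and -0.21, with overlap) and -0.23, and the nucleotide synthesis gene Rrm2 by -0.29. The calls of these 3 were lost without young 4 (adjusted p = 0.0634), without any of young 1, 3 and 4 or old 3 and 5 (adjusted p up to 0.115) and without any of young 2, 3 and 4 or old 1, 2, 3 and 4 (adjusted p up to 0.132), respectively.

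Histone genes whose transcripts are made in S phase were looked up after their values had been seen. Of 31 tested 7 were lower and 0 higher (median -0.30), led by H3c6, at 6.36, 7.39, 6.72 and 6.74 in young and 5.82, 5.86, 5.77, 6.02 and 6.31 in old arrays (difference -0.85, adjusted p = 0.000339). Copies of these genes are nearly identical, so a probe may bind several of them. Cbx8, a Polycomb subunit, fell from 6.67 ± 0.12 (n = 4) to 6.20 ± 0.11 (n = 5) (adjusted p = 0.000449).

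Every called proliferation gene held the letters CCAAT, the site of the factor NF-Y, in the 250 bases before its start, on either strand. This was 7 of 7 called genes and 16 of 19 tested members with a sequence, against 36.5% of 7984 tested genes and 34.5% of all 27025. The Prc1 (chr7:80294201-80294450, plus strand) and Cenpa (chr5:30666636-30666885, plus strand) promoters are shown, from RefSeq GRCm38.p6, with the letters or their reverse complement in capitals.
Prc1: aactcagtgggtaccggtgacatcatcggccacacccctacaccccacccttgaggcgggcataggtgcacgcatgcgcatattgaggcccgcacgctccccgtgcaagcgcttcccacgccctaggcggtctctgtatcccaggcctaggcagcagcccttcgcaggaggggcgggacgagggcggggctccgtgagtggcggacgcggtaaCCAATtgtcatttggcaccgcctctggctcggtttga
Cenpa: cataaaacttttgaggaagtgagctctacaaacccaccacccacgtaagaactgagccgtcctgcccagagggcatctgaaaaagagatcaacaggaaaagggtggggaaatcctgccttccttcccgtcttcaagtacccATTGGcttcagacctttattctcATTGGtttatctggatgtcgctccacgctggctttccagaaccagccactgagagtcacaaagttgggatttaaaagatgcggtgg
Prc1 held 1 match and Cenpa 2. The letters are common over all genes, and the match is only a description.

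Markers of immature neurons fell for 5 and rose for 0 of 29 tested members (median -0.17). Dpysl5, a growth cone protein, was 7.44, 7.55, 7.50 and 7.41 in young and 6.84, 6.61, 6.75, 6.55 and 6.76 in old arrays, without overlap (difference -0.77, SE 0.088, adjusted p = 1.47e-06). Igfbpl1, a secreted protein of neuronal precursors, was 5.14, 5.43, 5.91 and 5.92 in young and 4.41, 4.56, 4.82, 5.28 and 4.75 in old arrays, overlapping at old array 4 (difference -0.84, adjusted p = 0.00369). It was detected on 4 young and 1 old array, so it passed the detection filter through the young arrays and its difference is taken against a group mostly at background. The tubulin genes Tubb2a and Tubb2b fell by 0.71 and 0.25 on the log2 scale, and Marcksl1, an actin-binding membrane protein gene, by 0.53. Dimmer detected probes of Marcksl1 differed by -0.11 and 0.04, with overlap. The calls of Tubb2b and Marcksl1 were lost without any of young 2 and 4 or old 5 (adjusted p up to 0.111) and without young 4 (adjusted p = 0.0682). Dcx, the microtubule protein that defines newborn neurons, was 7.27, 7.23, 7.61 and 7.50 in young and 7.22, 7.09, 7.18, 6.98 and 6.94 in old arrays, without overlap but with adjusted p = 0.0692. A second Dcx probe differed by -0.39, also without overlap. Calb2, a calcium buffer of immature granule cells and some interneurons, was 10.16 ± 0.18 (n = 4) and 10.27 ± 0.20 (n = 5) (adjusted p = 0.608).

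Cell cycle inhibitors and damage responders went both ways, with 3 higher and 2 lower of 23 tested, against 3.75% and 3.97% over all features. Sesn2, a stress sensor of the mTOR pathway, rose by 0.39 (SE 0.089), Cdkn1b by 0.45 and the nuclear lamina gene Lmnb1 by 0.48. The call of Sesn2 was lost with wild type arrays alone. Sesn2 was detected on 2 young and 5 old arrays, so it passed the filter through the old arrays. The inhibitor gene Cdkn2c fell by 0.31 on the log2 scale, and Rbl1, a retinoblastoma relative, by 0.33. Calls lost on leaving out an array were those of Cdkn1b (without any of young 1, 3 and 4 or old 1, 2, 3 and 4 (adjusted p up to 0.114)), Lmnb1 (without any of young 1, 2 and 4 or old 1, 2, 3, 4 and 5 (adjusted p up to 0.188)), Cdkn2c (without any of young 1 and 2 or old 3 (adjusted p up to 0.0866)) and Rbl1 (without young 3 (adjusted p = 0.053)). Cdkn1a, the p53 target that marks many senescent cells, was 6.66, 7.11, 6.43 and 6.44 in young and 6.15, 5.80, 6.09, 6.02 and 6.63 in old arrays, with overlap (adjusted p = 0.179).

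Neuropeptide and interneuron genes fell for 5 and rose for 1 of 24 tested members (median -0.13). Nts, the neurotensin precursor, was 6.77, 6.48, 6.85 and 6.89 in young and 5.83, 6.05, 6.18, 6.64 and 5.88 in old arrays, overlapping at old array 4 (difference -0.63, SE 0.15, adjusted p = 0.0077). A dimmer Nts probe, detected on 2 young and 2 old arrays, differed by -0.03. Sst, the somatostatin precursor of dendrite-targeting interneurons, was 12.31, 12.39, 12.35 and 12.29 in young and 11.62, 12.16, 12.17, 12.10 and 12.16 in old arrays, with old array 1 lowest (adjusted p = 0.0262). Its relative Cort differed by -0.73, the feeding peptide gene Npy by -0.36 and the cholecystokinin gene Cck by -0.20. The cannabinoid receptor gene Cnr1, carried by cholecystokinin interneurons, rose by 0.30. The calls were lost for Sst without any of young 2 and 3 or old 1 (adjusted p up to 0.0717), for Cort without any of young 2, 3 and 4 or old 1, 2, 3 and 4 (adjusted p up to 0.221), for Npy without any of young 1, 2 and 4 or old 1, 3, 4 and 5 (adjusted p up to 0.186), for Cck without any of young 2, 3 and 4 or old 3, 4 and 5 (adjusted p up to 0.108) and for Cnr1 without any of young 1, 2, 3 and 4 or old 2, 3 and 4 (adjusted p up to 0.136).

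Activity-induced genes fell for 3 of 23 tested members and rose for 0 (median -0.16), against 3.97% lower and 3.75% higher over all features. Inhba, an activin subunit induced by synaptic activity, was 6.72, 7.14, 6.54 and 7.13 in young and 6.28, 6.11, 6.03, 6.37 and 6.00 in old arrays (difference -0.72, SE 0.13, adjusted p = 0.00127), without overlap. Nptx2, a secreted organiser of glutamate receptors, fell from 9.32 ± 0.25 (n = 4) to 8.80 ± 0.086 (n = 5), a call lost without any of young 1 and 4 (adjusted p up to 0.0686). Dusp6, a phosphatase of the ERK kinases, fell by 0.34 on the log2 scale, a call lost without any of young 1 and 4 or old 4 (adjusted p up to 0.0858). Dimmer Dusp6 probes differed by -0.23 and -0.19, with overlap. Egr1, a transcription factor of the first wave, was 12.68, 12.88, 12.70 and 12.81 in young and 12.43, 12.32, 12.46, 12.17 and 12.43 in old arrays, without overlap but with adjusted p = 0.0729.

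Protocadherin genes, which give neurons their surface identity, rose for 5 and fell for 0 of 27 tested members (median 0.105). All 5 belonged to the beta cluster on chromosome 18. Pcdhb3 was 7.16, 7.94, 8.10 and 7.97 in young and 8.29, 8.42, 8.48, 8.65 and 8.42 in old arrays (difference 0.66, SE 0.13, adjusted p = 0.0024) and Pcdhb7 6.55, 6.61, 6.67 and 6.71 and 7.40, 7.17, 7.00, 7.26 and 6.94 (difference 0.52, adjusted p = 0.00358), both without overlap. Pcdhb14, Pcdhb19 and Pcdhb9 rose by 0.46, 0.56 and 0.45, with calls lost without young 3 (adjusted p = 0.0634), without any of young 1, 2 and 4 or old 1, 2 and 4 (adjusted p up to 0.0836) and without any of young 2 and 3 or old 4 (adjusted p up to 0.0915). Pcdhb9 was detected on 1 young and 5 old arrays, so it passed the filter through the old arrays and its young level is near background. Its place among the 5 carries no weight of its own. The cluster holds close copies, so their probes may share signal. Among hippocampal subfield markers the dentate granule genes C1ql3, a synaptic organiser, and Npy1r, a neuropeptide Y receptor, differed by -0.39 and 0.39, with adjusted p of 0.0129 and 0.014, and the call of C1ql3 was lost without any of young 3 and 4 (adjusted p up to 0.06). The calls of both were lost with wild type arrays alone. C1ql2, a relative of C1ql3 in the same cells, was 11.60 ± 0.23 (n = 4) and 11.92 ± 0.21 (n = 5) (adjusted p = 0.0769).

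Protein folding and cold-inducible genes went both ways. Of 30 chaperone and stress genes 6 fell and 3 rose (median -0.08). The risers included Rbm3 and Cirbp, RNA-binding proteins whose transcripts rise at low temperature. Rbm3 was 8.30, 8.44, 7.92 and 8.32 in young and 9.54, 9.18, 9.47, 9.03 and 9.86 in old arrays (difference 1.17, SE 0.13, adjusted p = 9.92e-07), although 2 dimmer probes of the gene differed by -0.23 and -0.10. Cirbp was 7.54, 7.20, 7.23 and 7.26 in young and 8.36, 8.11, 8.12, 7.97 and 8.25 in old arrays (difference 0.86, SE 0.092, adjusted p = 8.06e-07), also without overlap. Hsph1, a heat shock protein that recharges Hsp70, was 12.07, 12.09, 12.00 and 12.03 in young and 11.71, 11.75, 11.70, 11.83 and 11.72 in old arrays, with the young arrays spanning 0.095 and the old ones 0.125 (difference -0.31, SE 0.053, adjusted p = 0.000625). The cochaperone genes Dnaja1 and Dnajb1 fell by 0.45 and 0.23 on the log2 scale, calls lost without any of young 2 or old 3 (adjusted p up to 0.0567) and without any of young 1 and 3 or old 1, 2 and 4 (adjusted p up to 0.105).

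The other 3 that fell act in the endoplasmic reticulum. Pdia6, a disulfide isomerase, was 8.28, 8.38, 8.28 and 8.34 in young and 7.29, 7.82, 8.09, 8.08 and 8.01 in old arrays (difference -0.46, adjusted p = 0.0153). Its call was lost with wild type arrays alone. Hspa5, the main chaperone of that compartment, differed by -0.55 and Creld2, a stress-induced isomerase, by -0.31, with calls lost without any of young 1, 2 and 4 or old 1 and 3 (adjusted p up to 0.122) and without any of young 1, 2 and 4 or old 1, 2, 3 and 4 (adjusted p up to 0.125). Calr, a lectin chaperone of the same compartment, moved the other way at 0.46, lost without any of young 1, 3 and 4 or old 1, 2, 3 and 5 (adjusted p up to 0.123). All 4 promoters hold an endoplasmic reticulum stress response element, spelled CCAAT, any 9 bases, then CCACG, on either strand. It was found in 6 of 24 tested chaperone genes with a sequence, in 0.138% of 7984 tested genes and in 0.122% of all 27025. The RefSeq GRCm38.p6 sequences before the start are those of Hspa5 (chr2:34771840-34772089, plus strand), Pdia6 (chr12:17266339-17266588, plus strand), Creld2 (chr15:88819396-88819645, plus strand) and Calr (chr8:84846932-84847181, minus strand), with the element or its reverse complement in capitals.
Hspa5: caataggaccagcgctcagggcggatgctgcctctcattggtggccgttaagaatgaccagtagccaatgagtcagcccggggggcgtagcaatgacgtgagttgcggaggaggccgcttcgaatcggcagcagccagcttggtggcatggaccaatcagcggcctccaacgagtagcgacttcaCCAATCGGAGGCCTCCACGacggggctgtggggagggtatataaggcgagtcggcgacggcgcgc
Pdia6: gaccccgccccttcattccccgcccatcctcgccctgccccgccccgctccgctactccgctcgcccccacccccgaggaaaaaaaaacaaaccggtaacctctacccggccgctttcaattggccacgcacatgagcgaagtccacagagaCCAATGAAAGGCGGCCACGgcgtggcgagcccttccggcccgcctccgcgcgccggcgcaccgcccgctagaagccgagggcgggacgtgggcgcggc
Creld2: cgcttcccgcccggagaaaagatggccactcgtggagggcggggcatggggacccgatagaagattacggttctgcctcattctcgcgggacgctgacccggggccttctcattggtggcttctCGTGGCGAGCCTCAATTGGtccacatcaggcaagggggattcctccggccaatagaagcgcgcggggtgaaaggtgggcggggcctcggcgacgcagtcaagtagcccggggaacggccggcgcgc
Calr: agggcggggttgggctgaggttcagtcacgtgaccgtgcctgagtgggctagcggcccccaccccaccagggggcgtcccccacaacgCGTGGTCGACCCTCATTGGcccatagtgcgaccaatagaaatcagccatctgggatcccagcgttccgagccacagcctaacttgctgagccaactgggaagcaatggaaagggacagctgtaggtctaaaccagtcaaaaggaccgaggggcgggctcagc
The element therefore stood in front of genes that were lower and of a gene that was higher in old mice.

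Vessel, matrix and lipid lists held single called genes of known role. Of 22 endothelial and pericyte genes 2 fell. Mfsd2a, the transporter that carries omega-3 lipids across the blood-brain barrier, was 9.20, 9.25, 9.06 and 9.09 in young and 8.75, 8.46, 8.49, 8.55 and 8.63 in old arrays (difference -0.58, adjusted p = 0.00353), and Tek, the angiopoietin receptor, fell from 7.79 ± 0.15 (n = 4) to 7.34 ± 0.15 (n = 5) (adjusted p = 0.00353). Tnc, a matrix glycoprotein of developing tissue, was 6.51, 6.23, 6.66 and 6.41 in young and 5.74, 5.73, 5.69, 5.82 and 5.58 in old arrays (difference -0.74, adjusted p = 3.97e-05), and a second probe differed by -0.74. Col6a1, a collagen VI chain, rose from 8.82 ± 0.089 (n = 4) to 9.62 ± 0.33 (n = 5) (adjusted p = 0.00119). Nid1, a basement membrane linker, fell by 0.48 on the log2 scale, a call lost without any of young 1 and 2 or old 1 (adjusted p up to 0.0748). The lipid transporter gene Abca8a was 7.13, 6.88, 7.23 and 6.98 in young and 8.12, 8.03, 8.13, 8.23 and 8.24 in old arrays (difference 1.10, SE 0.11, adjusted p = 1.99e-07). Idi1, an early enzyme of cholesterol synthesis, fell from 6.55 ± 0.25 (n = 4) to 5.89 ± 0.28 (n = 5) (adjusted p = 0.00931), while the sterol carrier gene Stard4 rose by 0.58, a call lost without any of young 2 and 3 or old 1 and 3 (adjusted p up to 0.0705), and 17 of 19 cholesterol genes did not pass. The fatty acid carrier gene Fabp5 fell by 0.40 on the log2 scale, a call lost without young 4 (adjusted p = 0.0638).

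Counts such as 3 of 41 detoxification genes, 4 of 39 lysosomal genes or 2 of 22 vessel genes are close to the 7.72% called over all features, and are no result about those lists. Gstt3, a glutathione transferase, was 6.32, 6.79, 6.35 and 6.41 in young and 7.23, 7.33, 7.40, 7.40 and 7.69 in old arrays (difference 0.94, adjusted p = 4.49e-05), and Gstp1 and Gstt1 made up the 3 called of 41, at 0.34 and 0.38, lost without any of young 3 and 4 (adjusted p up to 0.0597) and without any of young 3 and 4 or old 1, 2 and 5 (adjusted p up to 0.217). Among 39 lysosomal genes 4 rose, 2 of them, Laptm5 and Ctss, named above. Ppt1, a thioesterase, rose by 0.46 (SE 0.10) and Grn, the progranulin gene, by 0.22, a call lost without any of young 3 and 4 or old 4 and 5 (adjusted p up to 0.126). In the circadian list Nfil3, a clock output repressor, fell by 0.36 on the log2 scale (adjusted p = 0.00519). Its core activator gene Arntl differed by -0.36 and Rora, a nuclear receptor that drives Arntl, by 0.37, with calls lost without any of young 1, 3 and 4 or old 1, 2 and 5 (adjusted p up to 0.0876) and without any of young 3 and 4 or old 1, 2, 3 and 4 (adjusted p up to 0.148). The time of day of tissue collection was not found in the labels. Notch1, a receptor that maintains neural precursors, fell from 8.01 ± 0.15 (n = 4) to 7.50 ± 0.15 (n = 5) (adjusted p = 0.000989) and the ligand gene Wnt2 from 7.82 ± 0.28 (n = 4) to 7.21 ± 0.32 (n = 5) (adjusted p = 0.00665). The call of Wnt2 was lost with wild type arrays alone. Notch1 was at 7.67, 7.59 and 7.65 in the young ASC, CIAS and CASP11 knockouts, nearer to old than to young wild type. The T-type calcium channel gene Cacna1g fell by 0.35 on the log2 scale (SE 0.084), and the iron oxidase gene Heph by 0.34 (SE 0.083). A dimmer Cacna1g probe differed by -0.20, with overlap.

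Several of the largest single changes are given next, and of these Mkrn3 and Cacna2d1 belonged to lists. Mkrn3 was the 1 gene called of 19 imprinted genes tested. Cacna2d1 belonged to the 35 calcium signalling genes tested, of which 2 rose and 1 fell. Both counts are close to the 7.72% called over all features and are no result about those lists. Upk1b, a uroplakin membrane protein gene, was 6.12, 5.25, 5.39 and 5.84 in young and 7.39, 7.02, 7.11, 7.00 and 6.41 in old arrays (difference 1.34, SE 0.15, adjusted p = 1.3e-06). Mkrn3, an imprinted ubiquitin ligase gene that restrains the onset of puberty, was 6.42, 7.21, 6.58 and 6.86 in young and 5.99, 5.51, 5.67, 5.77 and 6.02 in old arrays (difference -0.97, SE 0.14, adjusted p = 9.86e-05). The pseudokinase gene Trib2, the amino acid transporter gene Slc38a5 and the endothelial receptor gene Cd93, the last picked after its value was seen, fell by 0.75, 0.73 and 0.68 on the log2 scale. Dclk1, a doublecortin-like kinase, had one of the 10 smallest p-values (difference -0.51, SE 0.059, adjusted p = 1.47e-06). Cplx2, a regulator of vesicle fusion, Slc24a2, a sodium-calcium exchanger, and the calcium channel subunit gene Cacna2d1 rose by 1.17, 0.93 and 0.92, and their calls were lost without any of young 1, 2, 3 and 4 or old 1, 2, 4 and 5 (adjusted p up to 0.0922), without any of young 1 or old 1 (adjusted p up to 0.0715) and without any of young 2, 3 and 4 or old 1, 2, 3 and 4 (adjusted p up to 0.117), respectively. The young knockout means lay nearer to old wild type in 0 of 3 for Slc24a2 and in 1 of 3 each for Cplx2 and Cacna2d1.

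Ccl21a, Ccl21b and Ccl21c are near-identical chemokine genes on chromosome 4 whose product draws lymphocytes and dendritic cells. They were among the called genes with the most negative differences, with uneven values. Ccl21a was 8.33, 6.72, 7.99 and 6.91 in young and 4.56, 4.54, 4.51, 4.57 and 7.72 in old arrays. Old arrays 1 to 4 were at background, while old array 5 lay inside the young range (difference -2.31, SE 0.59, adjusted p = 0.0149). Each of the 3 probes was detected on 4 young and 1 old wild type array, so it passed the filter through the young arrays. The size of the difference is thus taken against a group mostly at background. The 3 probes moved together from array to array, and since the copies cannot be separated they count as a single signal. The call of Ccl21a was lost without young 1 (adjusted p = 0.0549). Over all 31 arrays each of the 3 probes was detected on 12 of 14 young and 1 of 17 old arrays, knockouts included.

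For some of the genes with the largest wild type differences, the young knockouts lay near old rather than young wild type. Dctn1 and Dlg4 below were picked for this after their values were seen. Hnrnpl, a splicing regulator, was 9.32, 10.63, 10.13 and 10.32 in young and 11.12, 11.27, 11.25, 11.11 and 11.20 in old wild type arrays (difference 1.09, SE 0.17, adjusted p = 0.000234). Young mice of the ASC, CIAS and CASP11 knockouts had 11.15 ± 0.059 (n = 3), 11.08 ± 0.13 (n = 3) and 11.02 ± 0.13 (n = 4), all close to old wild type. Pi4kb, a lipid kinase of the Golgi, was 6.26 ± 0.16 (n = 4) in young and 7.20 ± 0.12 (n = 5) in old wild type, and 7.21 ± 0.13 (n = 3), 7.26 ± 0.11 (n = 3) and 7.23 ± 0.19 (n = 4) in the same young knockouts. The dynactin gene Dctn1 rose by 0.92 (SE 0.18) and the postsynaptic scaffold gene Dlg4 by 0.77 (SE 0.17), and both lay nearer to old than to young wild type in all 3 young knockouts. Traf2, an adaptor of tumour necrosis factor receptors, fell from 5.94, 6.27, 5.62 and 6.47 in young to 4.91, 4.90, 4.98, 5.04 and 4.97 in old wild type (difference -1.12, SE 0.23, adjusted p = 0.00369), and was 5.20 ± 0.13 (n = 3), 5.04 ± 0.10 (n = 3) and 5.14 ± 0.23 (n = 4) in the young knockouts. It was detected on 4 young and 2 old wild type arrays, so its old level is near background. Among other named genes, Notch1, Lmnb1, Tapbpl, Grn, Dnaja1, Arntl, Rbl1 and 5730409E04Rik also lay nearer to old wild type in all 3 young knockouts. Rbm3 was uneven, at 8.87 ± 0.23 (n = 3), 8.68 ± 0.19 (n = 3) and 9.57 ± 0.12 (n = 4) in the young ASC, CIAS and CASP11 knockouts, against 8.24 ± 0.22 (n = 4) in young and 9.41 ± 0.32 (n = 5) in old wild type.

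Counted over all 822 called genes, the means of all 3 young knockout groups lay on the young side of the midpoint between the wild type means for 365 (44.4%), and on the old side for 94 (11.4%). Over all features these shares were 28.9% and 16.2%. By list, all 3 knockout means lay on the young side for 11 of 13 called homeostatic microglia genes, 6 of 6 activated microglia genes, 6 of 7 reactive astrocyte genes, 7 of 8 myelin genes and 6 of 7 proliferation genes. The share was lower for other immune lists, with 3 of 5 called interferon-stimulated genes, 2 of 4 MHC class I genes and 0 of 2 MHC class II genes. It was 0 of the 9 called chaperone and stress genes. The counts use the same young and old wild type arrays as the calls and are a description without a test.

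**Figure D4:**
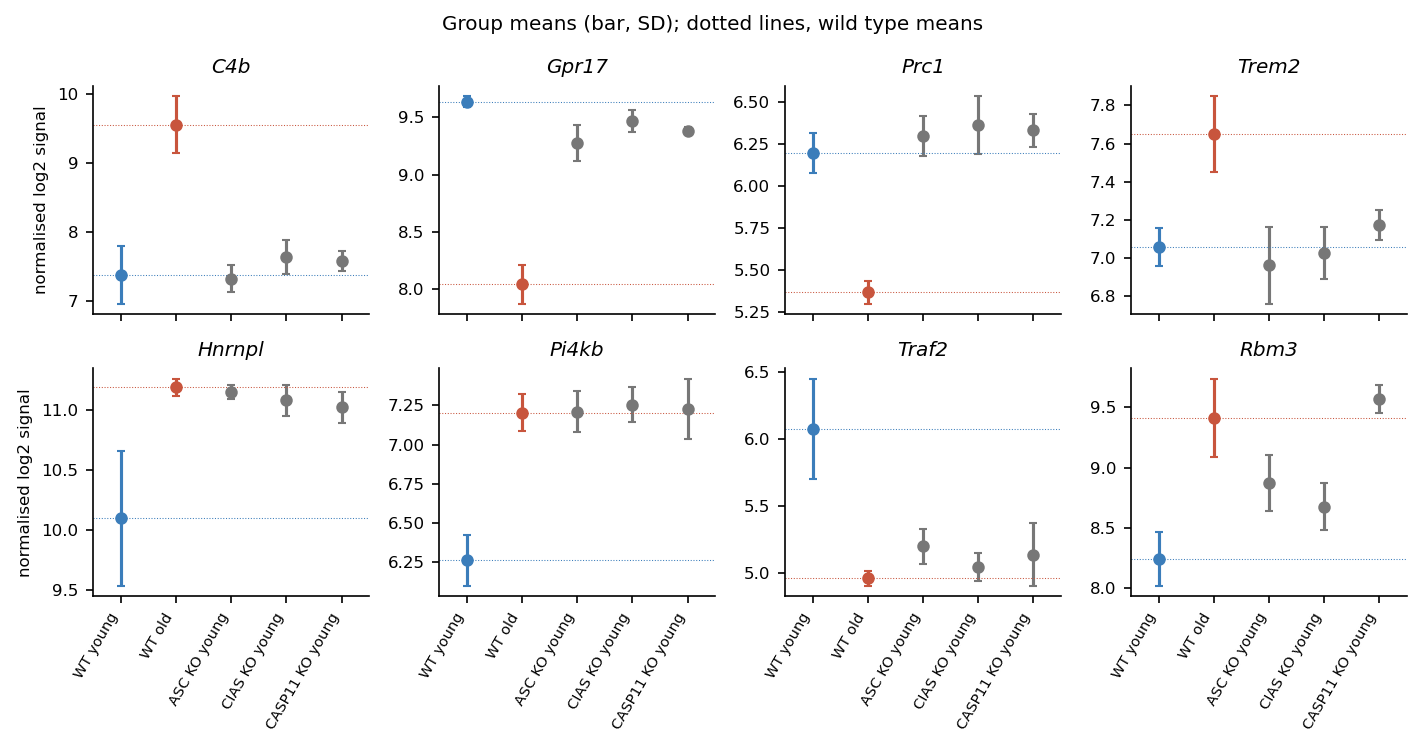
Mean normalised log2 signal (vertical axis, bar for SD) of 8 genes in young (n = 4) and old (n = 5) wild type and in young ASC (n = 3), CIAS (n = 3) and CASP11 (n = 4) knockouts, with dotted lines at the wild type means. For C4b, Gpr17, Prc1 and Trem2 the young knockouts lay near young wild type, and for Hnrnpl, Pi4kb and Traf2 near old wild type.

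The age difference itself was compared with that of the knockouts, each of which had its own young and old arrays. In the ASC knockout 77 features (0.723%) and in the CIAS knockout 134 (1.26%) were called for age, each from 3 young and 6 old arrays. Of the genes called higher in wild type 73.2% were also positive in the ASC and 61.4% in the CIAS knockout, and of those called lower 76.1% and 70.9% were also negative, against 56.4% and 54.1% sharing a sign over all features. The median of the 399 higher genes was 0.398 in wild type, 0.089 in the ASC and 0.074 in the CIAS knockout. For the 423 lower genes it was -0.352, -0.081 and -0.085. These genes were picked by their wild type values. Of the 399, 23 and 47 were also called higher in the ASC and CIAS knockouts, and of the 423, 26 and 24 lower. The genes named next are thus not typical. C4b rose by 1.71 in the ASC and 1.44 in the CIAS knockout, and neither differed from wild type (adjusted p of the difference 0.525 and 0.148). Gpr17 had differences of -0.99 and -1.25, Prc1 of -0.77 and -0.92, Upk1b of 1.53 and 1.67 and Mkrn3 of -0.97 and -0.97, all called in both knockouts. A test of the difference in age effect called 1 feature against the ASC knockout (0.00939%), the transcript 5730409E04Rik, and 139 against the CIAS knockout (1.31%). Without an adjustment, 1127 and 1604 features had p under 0.05. Of the 139, 137 had age differences of opposite sign in the 2 genotypes, and 99 were among the 822. 5730409E04Rik was 6.58, 6.22, 6.51 and 6.30 in young and 7.11, 7.15, 7.00, 6.89 and 7.19 in old wild type (difference 0.67), against age differences of -0.12 and -0.22 in the knockouts. Hnrnpl differed in age effect from the CIAS knockout by 1.56 (adjusted p = 0.00378), Dctn1 by 1.59, the deubiquitinase gene Usp45 by 1.10 and the growth cone gene Dpysl3 by 1.09. Dpysl3 was 6.42 ± 0.086 (n = 4) in young and 6.74 ± 0.10 (n = 5) in old wild type, with no call for age in wild type. The number of genes that differed from the CIAS knockout was between 51 and 199 when 1 wild type array was left out, lowest without young array 4.

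**Figure D5:**
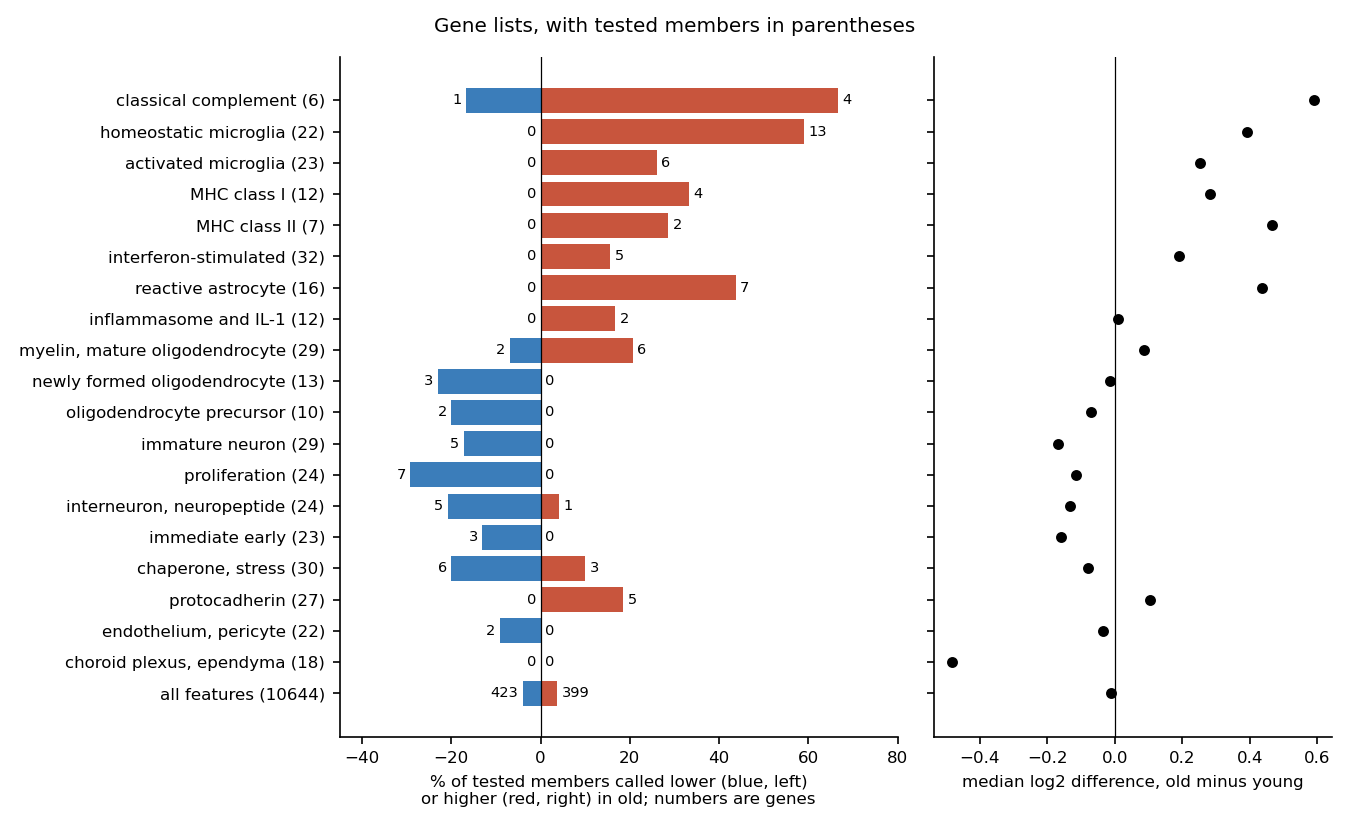
Share of tested members of 19 gene lists and of all features called lower (blue) or higher (red) in old wild type hippocampus (left, percent, with gene counts) and the median log2 difference of each list (right, old minus young). Called members of the complement, microglial and reactive astrocyte lists were only or mostly higher. Called members of the proliferation, immature neuron and newly formed oligodendrocyte lists were only lower. The median of the newly formed oligodendrocyte list, -0.014, was close to that of all features, -0.012.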

How the data were processed

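RNA of 32 hippocampus samples was hybridised to Illumina mouse bead arrays, and the authors deposited a linear bead intensity and a detection p-value per probe, made with GenomeStudio per the submitters' processing notes. The authors also deposited a table of normalised values on a linear scale, 24.4% of them below 0. These were raised to a floor of 16 and taken to log2, and were used only as an alternative. Intensities were background-corrected with normexp, negative controls being inferred from the detection p-values (neqc, limma 3.58.1, R 4.3.3, offset 16), quantile normalised and taken to log2. Of 25697 probes, 13993 passed the detection filter. The probe with the highest mean per gene was kept, giving 10644 features, 811 of them without a symbol. Called genes had 249 other detected probes, of which 207 differed with the same sign. When all probes were tested, 45 of the 249 were called with the same sign and 1 with the opposite sign. Probe names came from the platform annotation, updated by gene number for 23962 probes. A linear model over 7 groups and 31 arrays was fitted with limma, and p-values were adjusted with Benjamini-Hochberg over all features. The fit was tested on simulated data for the wild type age comparison with 10644 features, where it recovered 82 of 100 changes of 0.5 and 100 of 100 changes of 1 on the log2 scale. It also called 11 unchanged features. The simulated noise was independent between features. Changes below 0.5 were not simulated, although the median called difference was 0.398 for higher and -0.352 for lower genes.

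The text names the 15 called genes with the largest difference in each direction, the 10 with the smallest p, up to 4 members per gene list, set inflammasome and sex-linked genes, and 5 genes per knockout difference. Other called list members, and genes described as picked for their values, were added. The members and lists were chosen with earlier results of these data known. The number of arrays limits the precision. Promoters were matched by symbol to RefSeq. Alternatives covered normalisation, filters, arrays fitted, variance model and a replicate block. Correlations of same-numbered deviations between young and old arrays were 0.007, -0.037, -0.038 and 0.176. The best-matching old array had the same number only for replicate 4, which gave the value of 0.176. So few correlations cannot exclude that replicate numbers pair the samples.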

Additional observations from a re-analysis of the deposited data

Results flagged for a closer look

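Among 344 groups of values examined, 28 held an array far from the rest of its group by Dixon's ratio. Chance gives such an array in about 1 in 20 groups. Old array 5 lay far above the other old arrays for Ccl21a at 7.72, Ccl21b at 7.07, Ccl21c at 6.50, Creld2 at 8.05 and Cbx8 at 6.38, and far below them for Calb2 at 9.92, Mcm5 at 6.34 and Slc38a5 at 6.53. Old array 4 lay far above for Aif1 at 7.40, C1qa at 7.37, Pcdhb9 at 5.67 and Xist at 8.04, and far below for Eif2s3y at 4.43. Old array 1 lay far above for Rora at 8.94 and far below for Anln at 9.81, Hspa5 at 5.61, Mag at 10.59 and Sst at 11.62. Old array 3 lay far below for Dnaja1 at 5.56, and old array 2 for Irak1 at 5.88. Among young arrays, replicate 2 was high for Calr at 7.79, Il33 at 9.03 and Kl at 10.12 and low for Tnfsf13b at 5.16. Young array 3 was high for Isg15 at 6.14 and low for Kcne2 at 7.22, young array 4 was high for Mcm6 at 8.36 and young array 1 for P2ry13 at 7.95.

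The age difference in wild type minus that in a knockout passed the limma test for several genes named in the report. Against the ASC knockout this was 5730409E04Rik at 0.78 on the log2 scale. Against the CIAS knockout the positive ones were Slc24a2 at 1.89, Dctn1 at 1.59, Hnrnpl at 1.56, Cacna2d1 at 1.55, Pi4kb at 1.38, Usp45 at 1.10, Dpysl3 at 1.09 and Dlg4 at 1.07. Smaller positive differences were those of 5730409E04Rik at 0.89, Lmnb1 at 0.88, Fgfr3 at 0.83, Cnr1 at 0.67 and Sesn2 at 0.55. Negative differences were those of Traf2 at -1.66, Arntl at -0.61 and Dclk1 at -0.42.

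The old wild type array left out of the comparison carried striatal transcripts, with Rgs9 at 13.27, Drd1 at 11.63, Tac1 at 11.50 and Drd2 at 10.00, against at most 8.59, 7.24, 7.39 and 5.79 on old arrays 1 to 5. These encode a signalling regulator, a dopamine receptor, the substance P precursor and another dopamine receptor of striatal neurons.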

How the results depend on the processing

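The count of 822 called genes lay between 561 and 1095 under 13 alternatives of normalisation, filter, arrays fitted, variance model, sex-linked covariate and replicate block. With wild type arrays alone 236 genes were lower and 57.9% of calls were higher, against 48.5% in the model reported. That fit kept 93 of the 138 called genes named or listed. Eif2ak2, Sesn2, Pdia6, Wnt2, Npy1r and Rgs9 lost their calls in it, although they kept them in every fit without 1 array. Casp1, Gpnmb, Cdc20 and Inhba, also kept in those fits, lost their calls with old replicate 6 included. Requiring a fold of at least 1.5 left 125, 85 higher and 40 lower. Leaving out 1 array gave 558 to 712 calls, 273 to 373 higher and 277 to 364 lower. Among the arrays with high Eif2s3y there were 234 calls (115 higher, 119 lower), with 53 of the named genes and 45 list members. Without old arrays 2 and 4 there were 480 (215 and 265), with 88 named genes. Both choices were made after seeing the data and leave fewer arrays.

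The difference from the ASC knockout, 1 gene, gave 3 with only the arrays of both genotypes, 2 with old replicate 6, 0 with high Eif2s3y, 4 without old 2 and 4, and 0 to 2 without 1 array. The difference from the CIAS knockout, 139 genes, gave 71 without a detection filter, 76 with only the arrays of both genotypes, 41 with old replicate 6, 299 with array weights, 22 with high Eif2s3y, 89 without old 2 and 4, and 51 to 199 without 1 array. The cause was not tested. With the replicate block 765 genes were called for age, 0 differed from the ASC and 96 from the CIAS knockout.

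Of 138 called genes named or listed, 81 kept their call in all 9 fits without 1 array and 43 in every setting. Rgs9, at -0.395 in the model reported (adjusted p = 0.0103), turned positive, at 0.44, with old replicate 6 included. Dim probes near background limit the size of a fold.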

Other observations

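Transcripts of tissues next to the hippocampus or distant from it varied widely between arrays, and these were picked after their values were seen. Prl, the prolactin gene of the pituitary, was 7.80, 7.44, 7.57 and 10.44 in young and 5.14, 4.68, 4.77, 8.48 and 7.25 in old arrays (difference -2.25, limma adjusted p = 0.106). Gh, the growth hormone gene, was 6.49, 7.53, 5.34 and 10.25 in young and 4.61, 4.54, 5.24, 5.23 and 6.34 in old arrays (difference -2.21, adjusted p = 0.0916). Young array 4 was highest for both genes. Pcp2, a marker of cerebellar Purkinje cells, was 5.41, 4.79, 4.45 and 4.43 in young and 7.19, 7.02, 5.88, 5.38 and 4.95 in old arrays (difference 1.31, adjusted p = 0.0918), highest on old arrays 1 and 2. None of the 3 passed the test, although each differed by more than 1 on the log2 scale, and they varied within both ages.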
